A study of Rattus norvegicus with 6 samples.

Results

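Metallothioneins are small cysteine-rich proteins that bind zinc and copper. Mt1, Mt2A and Mt3 encode 3 of them, Mtf1 encodes MTF-1, the zinc-sensing factor that switches metallothionein genes on, and Slc30a1 encodes ZnT1, the zinc exporter of the plasma membrane. These 5 genes, of 18166 with a symbol on the array, were taken by symbol, with every probe set linked to them, which gave 7 probe sets of 36685. They were picked as genes of interest with the array values already known. Their levels and differences are therefore given as a description, without p-values of their own.

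The 6 arrays measured total RNA of whole lenses from 6-week-old male Sprague-Dawley rats, kept in culture. The groups were Control, cultured without galactose (1 array), Galactose, in 30 mM galactose for 6 days (3 arrays), and AZD0156 and KU55933 (1 array each), in 30 mM galactose for 6 days with the named inhibitor of the kinase Atm at 20 µM during the last 3. Galactose clouds the cultured lens and serves as a model of diabetic cataract, and the comparisons asked which genes it raised and which of these an Atm inhibitor lowered again. The labels do not say whether the Galactose arrays came from separate cultures, nor how many lenses an array held. Per the study's methods, lenses kept in galactose received DMSO whether or not it carried an inhibitor, and the Control is said to have received sterile water, so that galactose and DMSO cannot be told apart if the Control had none. The culture time of the Control is given as 6 days in the methods and as 4 days in the scheme.

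In the cell, free zinc makes MTF-1 bind short DNA motifs called metal response elements, which lie in several copies before the metallothionein genes and before Slc30a1. The metallothionein protein then takes up the metal, and ZnT1 carries it out. Mt1 and Mt2A are made in most tissues and also answer to oxidants and glucocorticoids, while Mt3 is best known from brain. In the lens, metallothioneins are known for protecting epithelial cells against metals and oxidants.

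The promoters are shown because the copies of the metal response element can be read in them. A window of 300 bases, 250 before and 50 after the annotated transcript start, was taken from RefSeq for each gene (rat build GRCr8), and all 5 genes had one. The Mt1 window lay at chr19:10832926-10833225, that of Mt2A at chr19:10838659-10838958 and that of Mt3 at chr19:10856031-10856330, all on the minus strand. In the sequences below, printed 5′ to 3′, capitals mark matches to the core of the metal response element, TGCACNC or TGCGCNC, on either strand.
Mt1: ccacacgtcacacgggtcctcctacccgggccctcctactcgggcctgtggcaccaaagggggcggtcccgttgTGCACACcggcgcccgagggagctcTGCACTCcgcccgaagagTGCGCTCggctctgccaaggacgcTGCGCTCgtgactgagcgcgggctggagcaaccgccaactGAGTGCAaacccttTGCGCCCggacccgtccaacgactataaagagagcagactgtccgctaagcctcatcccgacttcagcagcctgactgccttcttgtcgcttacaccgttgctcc
Mt2A: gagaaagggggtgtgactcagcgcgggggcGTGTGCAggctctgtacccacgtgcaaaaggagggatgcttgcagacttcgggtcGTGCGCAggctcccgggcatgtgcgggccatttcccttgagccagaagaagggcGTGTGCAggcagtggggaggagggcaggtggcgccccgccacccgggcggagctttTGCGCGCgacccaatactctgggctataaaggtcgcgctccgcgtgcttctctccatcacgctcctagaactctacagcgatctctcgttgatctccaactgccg
Mt3: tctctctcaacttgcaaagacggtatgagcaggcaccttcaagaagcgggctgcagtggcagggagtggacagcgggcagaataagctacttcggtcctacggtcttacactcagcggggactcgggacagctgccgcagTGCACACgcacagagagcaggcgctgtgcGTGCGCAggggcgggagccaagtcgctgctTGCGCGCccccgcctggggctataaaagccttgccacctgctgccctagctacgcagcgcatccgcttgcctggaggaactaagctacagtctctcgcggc
Mt1 held 6 matches, whose first bases lay between -176 and -55 from the start, Mt2A held 4 between -220 and -55, and Mt3 held 3 between -110 and -51. No matches overlapped. Of 33469 RefSeq promoters of this length, 24.2% held at least 1 match. At least as many as in Mt3 were held by 1.68%, as in Mt2A by 0.439% and as in Mt1 by 0.0388%. Mtf1 on chromosome 5 and Slc30a1 on chromosome 13 held 2 each, a number reached by 6.36% of promoters.

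The core of the antioxidant response element, TGACNNNGC on either strand, is held by 12.1% of the promoters. It matched once in the windows of Mt1, Mt2A and Slc30a1, 2 times in that of Mtf1 and not in that of Mt3. The letters TATAAA on the forward strand, present in 8.8% of the promoters, were found once each before Mt1, Mt2A and Mt3, with the first base at -32, -31 and -31, and were not found in the windows of Mtf1 and Slc30a1. These matches describe the letters and are not measured binding sites.

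**Figure D1:**
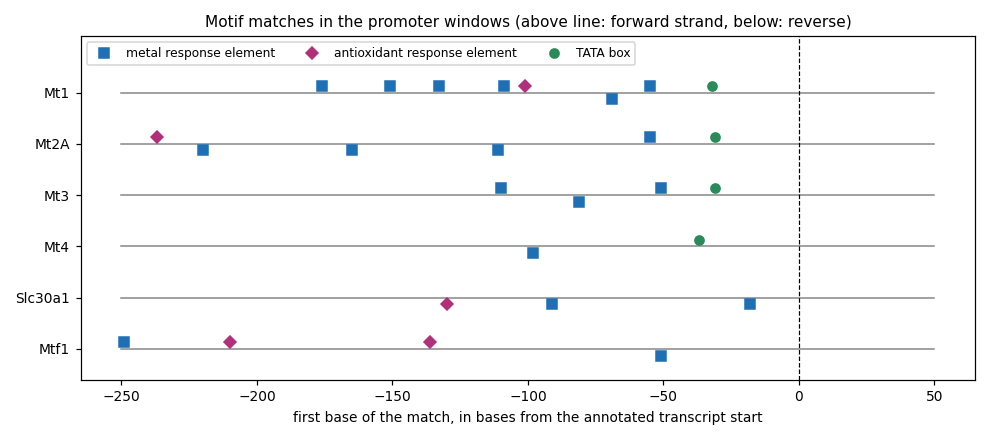
Matches to the metal response element (squares), the antioxidant response element (diamonds) and TATAAA (circles) along the 300-base promoter windows of the 5 genes and of Mt4, plotted by the distance of the first base of each match from the annotated transcript start. Marks above a line are on the forward strand and marks below it on the reverse strand. The 6 matches of Mt1 and 4 of Mt2A all lie before the start.

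The signals are on the log2 scale, so that a difference of 1 is a 2-fold change. Levels were not compared between probe sets, which differ in their probes. Over the 5784 probe sets that were linked to a gene and reached 5 on at least 1 array, the median signal lay between 5.69 and 5.81 on the Control, Galactose and KU55933 arrays and was 5.55 on the AZD0156 array. The median difference between AZD0156 and the mean of the Galactose arrays was accordingly -0.18. Over the same probe sets, Galactose replicate 1 was nearer to the KU55933 array (Euclidean distance 25.6) than to Galactose replicates 2 (33.7) and 3 (35.2), which were 23.3 apart. Of the lens fibre markers, 7 of 11 were on the array and all 7 were at 5 or above, and no marker of immune cells (6 on the array, highest signal 4.74), endothelium (2), blood (1), retina (3), pigmented iris and ciliary body (5) or glia (4) reached 5 on an array. Of the smooth muscle markers 2 of 4 were on the array, and Des, which encodes the muscle filament desmin, reached 5 on the Control array only (6.11).

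Mt1 RNA was higher on every Galactose array than on the Control array. The probe set with the higher signal (17731745) stood at 7.37 in the Control, at 9.85, 10.13 and 9.33 in Galactose replicates 1 to 3, at 8.53 with AZD0156 and at 10.08 with KU55933. The Control was the lowest array and AZD0156 the next, 0.80 under the lowest Galactose array, while KU55933 lay within the Galactose range. The Galactose mean was 9.77 ± 0.405 (SD, n = 3), which is 2.39 ± 0.336 (SE of the limma fit, as in all values below) above the Control, or 5.26-fold. AZD0156 lay 1.24 below the Galactose mean (difference -1.24 ± 0.336, ratio 0.423), so that 51.8% of the log2 rise over the Control was gone. KU55933 was 0.31 ± 0.336 above the Galactose mean.

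The other Mt1 probe set (17717103) was dim, at 1.84 in the Control, 5.45, 4.43 and 3.79 in Galactose, 2.77 with AZD0156 and 5.06 with KU55933. It had the same order of groups, with Control and AZD0156 under all Galactose arrays, the latter by 1.02. It reached 5 only on Galactose replicate 1 and KU55933, so that it passed the filter through arrays on which it was high and had to differ. Its differences were 2.72 ± 0.688 for Galactose minus Control, -1.78 ± 0.688 for AZD0156 minus Galactose and 0.51 ± 0.688 for KU55933 minus Galactose.

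Mt2A, which encodes the other widely expressed metallothionein, was likewise higher on every Galactose array, by a smaller log2 difference. Its brighter probe set (17752700) gave 10.22 in the Control, 11.39, 11.81 and 11.33 in Galactose, 10.45 with AZD0156 and 11.88 with KU55933. AZD0156 lay 0.88 under the lowest Galactose array and 0.23 above the Control, and KU55933 lay 0.07 above the highest Galactose array. The Galactose mean of 11.51 ± 0.258 (SD, n = 3) was 1.29 ± 0.229 above the Control, or 2.45-fold. The AZD0156 value was -1.06 ± 0.229 from that mean (ratio 0.479), with 82.2% of the log2 rise gone, and the KU55933 value 0.37 ± 0.229 (ratio 1.29).

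The second Mt2A probe set (17731750) gave 6.81 in the Control, 8.25, 8.65 and 7.94 in Galactose, 6.64 with AZD0156 and 8.77 with KU55933. Here the AZD0156 array was the lowest of all 6, 0.17 under the Control and 1.30 under the lowest Galactose array, and KU55933 was again the highest, 0.12 above the Galactose arrays. The differences were 1.47 ± 0.328 for Galactose minus Control (2.78-fold), -1.64 ± 0.328 for AZD0156 minus Galactose and 0.49 ± 0.328 for KU55933 minus Galactose.

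**Figure D2:**
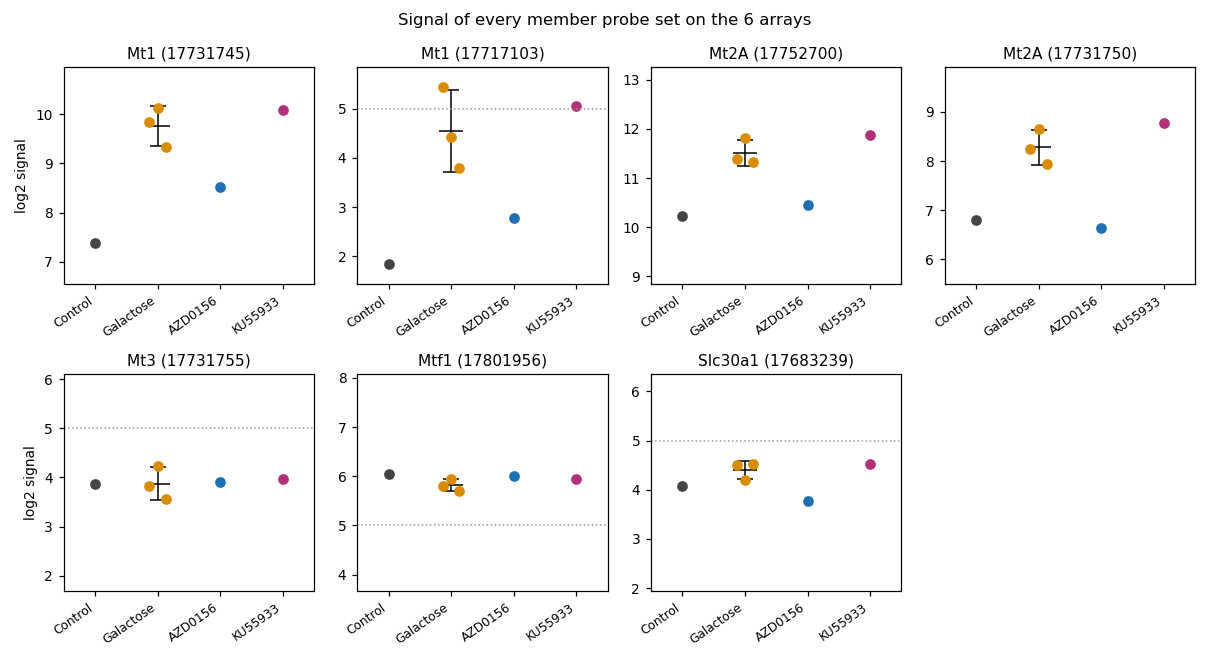
log2 signal of the 7 probe sets on each array, 1 panel per probe set, with 1 point per array and the mean ± SD of the 3 Galactose arrays as a bar. The vertical axes all span 4.4 log2 units but are centred on each probe set, and the dotted line marks the signal of 5 used as a filter. In the 4 panels of Mt1 and Mt2A, Control and AZD0156 lie under all Galactose arrays, and in those of Mt3 and Mtf1 the 6 arrays span less than 1.

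Mt3, the metallothionein known from brain, was low on all arrays and showed no such pattern. Its signal was 3.86 in the Control, 3.83, 4.23 and 3.57 in Galactose, 3.91 with AZD0156 and 3.97 with KU55933. The Control and both inhibitor arrays lay within the range of the Galactose arrays. The probe set stayed under 5 on all arrays and was not tested.

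Mtf1, which encodes the transcription factor, moved little. Its signal was 6.05 in the Control, 5.81, 5.95 and 5.70 in Galactose, 6.01 with AZD0156 and 5.94 with KU55933. The Control and AZD0156 lay above all Galactose arrays, the reverse of Mt1 and Mt2A, at differences of the size of their SE. Galactose minus Control was -0.23 ± 0.219 and AZD0156 minus Galactose 0.19 ± 0.219.

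Slc30a1, the exporter gene, had a low signal on all arrays. It gave 4.07 in the Control, 4.50, 4.19 and 4.52 in Galactose, 3.77 with AZD0156 and 4.52 with KU55933. The Control and AZD0156 were under all Galactose arrays, with AZD0156 the lowest, as at the dimmer Mt2A probe set and unlike the other 3 probe sets of Mt1 and Mt2A. The highest value was 4.52, so that the probe set was left out of the fit and its differences, 0.34 for Galactose minus Control and -0.64 for AZD0156 minus Galactose, carry no SE.

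**Figure D3:**
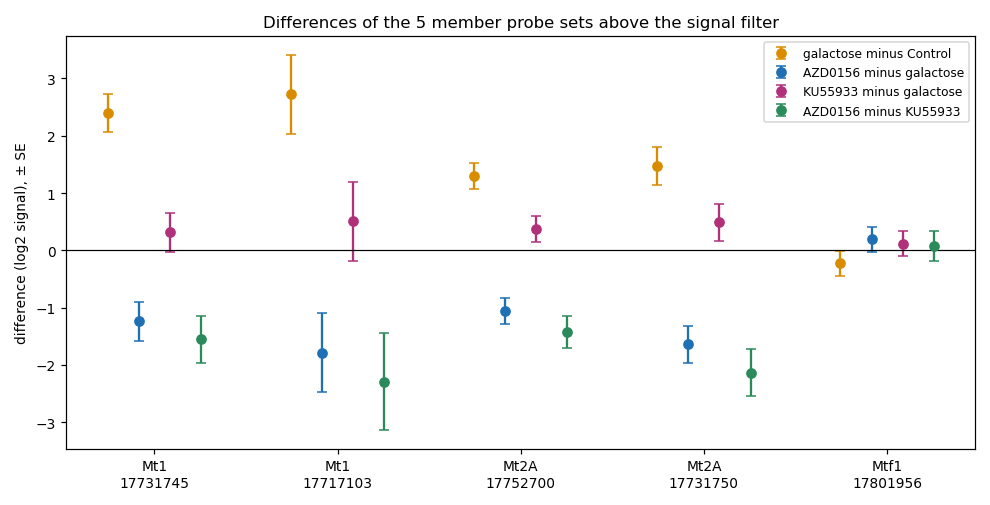
Differences in log2 signal, with the SE of the limma fit, for the 5 probe sets of Mt1, Mt2A and Mtf1 that reached 5 on at least 1 array, in 4 comparisons told apart by colour. For the 4 probe sets of Mt1 and Mt2A, Galactose minus Control lies between 1.29 and 2.72 and AZD0156 minus Galactose between -1.78 and -1.06, while KU55933 minus Galactose lies between 0.31 and 0.51.

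Of the 4 probe sets of Mt1 and Mt2A, 3 were above 5 on every array and did not owe their place in the fit to 1 group. Their differences between Galactose and Control were 2.39, 1.29 and 1.47, as given above, where the median over all 5784 probe sets was -0.02. For AZD0156 minus Galactose they were -1.24, -1.06 and -1.64 against a median of -0.18, and for KU55933 minus Galactose 0.31, 0.37 and 0.49 against 0.05. Since the genes were picked on such values, this only places them on the scale of the other probe sets. On the AZD0156 array 70.8% of all tested probe sets were below the Galactose mean, and 57.1% were above it on the KU55933 array. With each array centred on its median, the AZD0156 difference was -1.04 for Mt1 (17731745) and -0.86 for Mt2A (17752700).

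In limma with Benjamini-Hochberg adjustment at 0.05, 2 of the 5 tested probe sets of these genes passed as higher in Galactose than in the Control, Mt1 (17731745) and Mt2A (17752700), where 1.61% of all tested probe sets were called higher and 1.26% lower. The genes were selected on this contrast, and nothing further is read from this count. Without Galactose replicate 2 it was 1 (Mt1; 0.519% of all called higher), without replicate 3 it was 0 (0.0519%) and without replicate 1 it was 4 (14.2%). The Mt2A call was also lost with no filter on low signal and without a trend in the moderation, and both calls with all deposited probe sets at 5 or above in the fit. In the comparisons of AZD0156 or KU55933 with Galactose and of AZD0156 with KU55933, 0 of the 5 passed, and 0% of all tested probe sets were called in either direction. Before adjustment (p under 0.05), 4 of the 5 were lower with AZD0156 than in Galactose, as were 12.4% of all tested probe sets, and 0 differed between KU55933 and Galactose, where 2.3% of all were higher and 1.16% lower. Without Galactose replicate 1, 3 of the 5 passed as lower with AZD0156 than in Galactose and 4 as lower than with KU55933, in a fit that called 16.4% and 12.5% of all probe sets lower. These counts too are of genes selected on the values counted, so nothing is read from them. Each count of 4 includes the dimmer Mt1 probe set (17717103), which passed the filter only through arrays on which it was high. The Control, AZD0156 and KU55933 arrays have no replicate and are assumed to vary as the Galactose arrays do, and all comparisons with Galactose share its 3 arrays.

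The 2 Atm inhibitors, at the same dose and time, stood apart at Mt1 and Mt2A. AZD0156 minus KU55933 was -1.55 ± 0.412 and -2.29 ± 0.842 at the 2 Mt1 probe sets (17731745 and 17717103) and -1.43 ± 0.281 and -2.13 ± 0.402 at the 2 of Mt2A (17752700 and 17731750). The median over all tested probe sets was -0.23, and 73.2% were lower with AZD0156. At Mtf1 the arrays differed by 0.08 ± 0.268. With 1 array per inhibitor and the genes chosen for how they moved, these are the sizes on these arrays. Against the Control, KU55933 was higher by 2.71 and 3.23 at Mt1 and by 1.66 and 1.96 at Mt2A, and AZD0156 by 1.15 and 0.94 at Mt1 and by 0.23 and -0.17 at Mt2A.

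The lens holds fibre cells under a single layer of epithelium, and the summed signal of genes listed as epithelial markers varied between arrays. The 5 listed (Pax6, Foxe3, Cdh1, Prox1 and Aqp1) each reached 5 on at least 1 array, and the log2 of their summed signal was 9.87 in the Control, 8.63, 9.61 and 9.72 in Galactose, 9.26 with AZD0156 and 8.92 with KU55933. The sum was taken on the linear scale, so that the brightest gene weighs most. How particular each gene, Prox1 among them, is to the epithelium was not tested. The Control was the highest and Galactose replicate 1 and KU55933 the lowest. The summed lens fibre markers stayed between 15.02 and 15.14. Their part in the metallothionein differences was not tested, and in bulk RNA fewer cells of a type and less RNA per cell cannot be told apart.

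Across the 6 arrays the 4 probe sets of Mt1 and Mt2A ran together, with a Pearson r between 0.886 and 0.983 in the 6 pairs. Slc30a1 had an r of 0.62 to 0.77 with them, Mt3 of 0.17 to 0.30 and Mtf1 of -0.53 to -0.45. The 6 arrays fall into 4 groups, of which only 1 has replicates, so that these values mostly describe the group differences. The metallothionein genes are also near-identical in parts of their sequence. The platform annotation does not say which locus each probe set reads, RefSeq lists 4 metallothionein pseudogenes, none of them linked by symbol to a probe set, and signal shared between copies cannot be told apart. Numbered in sequence, probe sets 17731745, 17731750, 17731755 and 17731760 stand for Mt1, Mt2A, Mt3 and Mt4, the genes of the cluster on chromosome 19. The first pair of this run had the pattern. The second did not, and it stayed under 5 on all arrays. The dimmer Mt1 probe set (17717103) and the brighter Mt2A probe set (17752700) are numbered outside this run. Which locus they read is not known.

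Besides these genes, 2 further metallothionein entries were on the array. Mt4, known in other mammals from stratified epithelia, stayed between 3.44 and 3.91 and was not tested. Its promoter held 1 match to the metal response element, a number reached by 24.2% of promoters. Mt1f, placed on chromosome X by RefSeq, gave 6.14 in the Control, 8.76, 8.51 and 7.41 in Galactose, 7.08 with AZD0156 and 8.67 with KU55933. This is the same order of groups as for Mt1, at an r of 0.89 to 0.98 with the 4 probe sets. Galactose minus Control was 2.08 ± 0.507 (limma adjusted p = 0.0792), AZD0156 minus Galactose -1.15 ± 0.507 (adjusted p = 0.376) and KU55933 minus Galactose 0.45 ± 0.507 (adjusted p = 0.992), none past the threshold. Galactose minus Control passed only without Galactose replicate 1, in a fit that called 14.2% of all tested probe sets higher. That fit had 108 prior degrees of freedom, against 4.97 in the main fit. In the other settings the limma adjusted p lay between 0.0671 with each array centred on its median and 0.194 with all deposited probe sets.

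The genes most like the metallothioneins were sought by the Pearson r, over the 6 arrays, with the mean of Mt1 (17731745) and Mt2A (17752700), among 1661 tested probe sets whose signals spanned at least 1. The median r was 0.06, and 13 reached 0.95. The 6 highest were Arl6ip5 (0.991), Paf1 (0.982), Bcat1 (0.973), Rpp25l (0.969), Sec11a (0.964) and Morf4l2 (0.963). Arl6ip5 encodes a membrane protein that restrains a glutamate transporter, Paf1 a part of a complex that travels with RNA polymerase II, Bcat1 the cytosolic aminotransferase of branched-chain amino acids, and Sec11a the catalytic part of the signal peptidase. Bcat1 stood at 4.67 in the Control, 6.41, 6.39 and 6.38 in Galactose, 5.32 with AZD0156 and 6.61 with KU55933. Arl6ip5 stood at 4.97, then 6.33, 6.37 and 5.91, then 5.43 and 6.50 in the same order. Both have Control lowest, AZD0156 next and KU55933 highest, as Mt2A has at its brighter probe set.

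**Figure D4:**
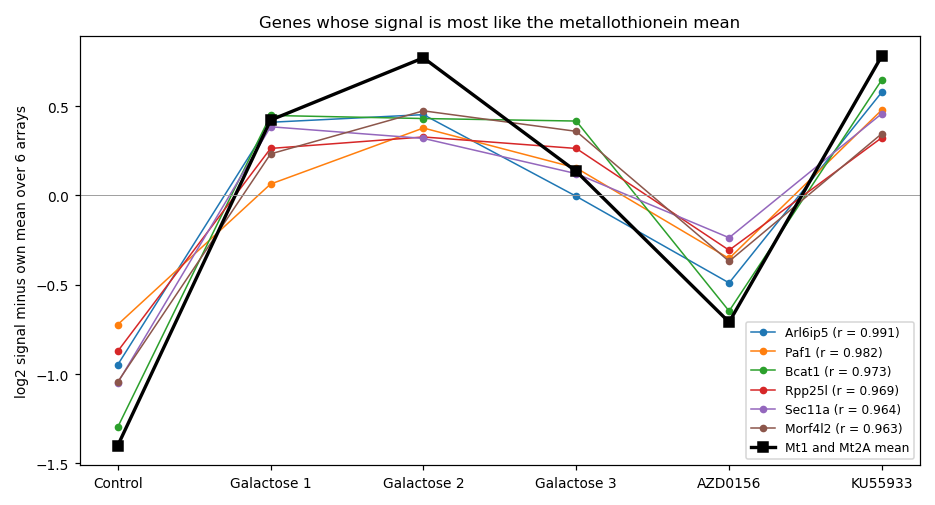
log2 signal minus its own mean over the 6 arrays for the Mt1 and Mt2A mean (black squares) and the 6 genes whose signal was most like it (coloured lines, with Pearson r over the 6 arrays). Each line is lowest in the Control and next lowest with AZD0156. The genes were chosen for this likeness, so the plot is a description.

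To see whether other genes of metal handling moved, 42 genes in 4 lists were looked up. Of these 40 were on the array and 24, with 1 probe set each, were tested. The lists were chosen with earlier results of these data known, so the counts are not an independent test. The other 16 had a highest signal of 4.97. In galactose against the Control 1 of the 24 rose and 0 fell, beside 1.61% and 1.26% of all tested probe sets, and 4 were above and 3 below at an unadjusted p under 0.05, as were 11.2% and 11.9% of all. The median difference of the 24 was 0.08. With AZD0156 0 passed against Galactose (0 higher and 2 lower unadjusted, beside 1.33% and 12.4% of all, median -0.30), with KU55933 0 (0 and 0 unadjusted, median 0.004), and between AZD0156 and KU55933 0 (0 and 2 unadjusted, beside 0.882% and 10.8%, median -0.33). The differences of the 24 between Galactose and Control ran from -1.07 to 1.70.

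Csrp1 was the gene that rose. It encodes a zinc-binding LIM protein of the actin cytoskeleton and stood in the list of metal-response genes. Its signal was 5.32 in the Control, 6.82, 7.08 and 7.17 in Galactose, 6.06 with AZD0156 and 6.44 with KU55933. The Galactose arrays were all above the other 3 arrays. Galactose minus Control was 1.70 ± 0.251 (limma adjusted p = 0.0317), AZD0156 minus Galactose -0.96 ± 0.251 and KU55933 minus Galactose -0.59 ± 0.251. The call was lost without Galactose replicate 2 (adjusted p = 0.0816) or 3 (0.107) and in the fit of all deposited probe sets (0.141). Csrp1 is also among genes the study picked from these samples. By RT-qPCR the study reports it among the genes raised in galactose and lowered by both inhibitors. It places Csrp1 in a network of actin cytoskeleton genes.

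In the same list Hmox1, the haem-degrading enzyme, was at 1.11 ± 0.293 (limma adjusted p = 0.092) for Galactose minus Control, Txnrd1, thioredoxin reductase, at 0.87 ± 0.246 (0.103), and Ndrg1, a gene known to answer to hypoxia and metals, at -1.06 ± 0.286 (0.097). None of the 3 passed the threshold, and Txnrd1 was under 5 in the Control and with AZD0156. Over the 7 of 8 metal-response genes tested the median was 0.08. On the AZD0156 array Hmox1 lay within the Galactose range, where Mt1 and Mt2A lay under it.

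Of 9 further genes of the ZnT family, most of which move zinc out of the cytosol, 4 were tested and 0 passed in either direction. For Galactose minus Control they gave 0.76 for Slc30a4 (limma adjusted p = 0.112), -0.42 for Slc30a9 (0.296), 0.10 for Slc30a7 and -0.05 for Slc30a5. Slc30a7, a ZnT of the Golgi, was at 5.38 in the Control, 5.44, 5.50 and 5.52 in Galactose, 4.49 with AZD0156 and 5.25 with KU55933. Its difference between AZD0156 and the Galactose mean, -1.002 ± 0.205, did not pass. Of 14 zinc importers of the ZIP family, which move zinc into the cytosol, 13 were on the array, 5 were tested and 0 passed. Slc39a11 gave 0.54 (0.289), Slc39a1 0.42 (0.309), Slc39a7 0.13 and Slc39a13 0.07 for Galactose minus Control. Slc39a11 reached 5 only on Galactose replicates 2 and 3, and so passed the filter through the group in which it was high. Slc39a7 reached 5 only with KU55933.

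Copper also binds metallothioneins. Of 11 copper genes 10 were on the array, 8 were tested and 0 passed, with a median of -0.12 for Galactose minus Control. Atp7a, a copper-exporting ATPase, gave -1.07 ± 0.394 (limma adjusted p = 0.17) and reached 5 in the Control only, the copper chaperone Atox1 -0.53 (0.298), the importer Slc31a1 0.53 (0.266) and Sod1, copper-zinc superoxide dismutase, -0.48 (0.326).

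**Figure D5:**
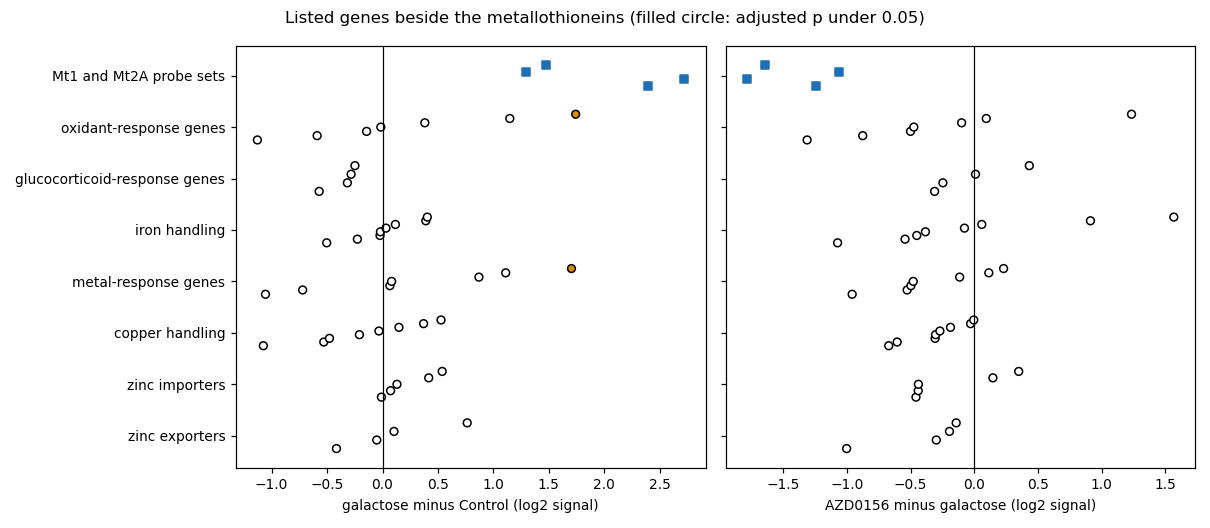
Difference in log2 signal for Galactose minus Control (left) and AZD0156 minus Galactose (right), 1 circle per tested gene of the lists named on the vertical axis (the probe set with the highest mean) and 1 square per probe set of Mt1 and Mt2A. Filled circles passed an adjusted p of 0.05, which Csrp1 and Nqo1 did on the left and none did on the right. Within a row the vertical offset only separates the points.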

How the data were processed

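The authors hybridised the RNA to GeneChip Rat Gene 2.0 ST arrays and made the deposited log2 signals by Robust Multi-array Average over all 6 arrays. The signals were used as deposited. Of 36685 probe sets, 19086 are linked to a gene by the platform annotation (18511 to 1 symbol, 575 to several). As in the study's methods, those under 5 on all arrays were left out, leaving 5784.

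Differences came from limma 3.58.1 (R 4.3.3) on all arrays, with 4 group means, a trend in the moderation, 2 residual degrees of freedom (4.97 prior) and Benjamini-Hochberg adjustment over the 5784. The residual degrees of freedom come from the 3 Galactose arrays alone, so the p-values hold no spread among Control or inhibitor arrays. The fit was tested on simulated data in which all arrays had the same spread. That could not test whether the arrays without a replicate vary as the Galactose arrays do. Promoters, lists and figures were handled in Python 3.11.15 (pandas 2.3.3, numpy 2.4.6, matplotlib 3.10.9).

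The genes and lists were chosen with earlier results of these data known. Named are every probe set of the 5 genes, up to 4 tested genes per list with the largest difference between Galactose and Control, any that passed, and the 6 genes most like Mt1 and Mt2A. Alternatives were centring, other filters or probe sets, other moderation, leaving out replicates, and other probe set summaries. The number of arrays limits the precision.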

Additional observations from a re-analysis of the deposited data

Results flagged for a closer look

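At both Mt2A probe sets the 2 inhibitors lay on opposite sides of the Galactose arrays, AZD0156 below all 3 and KU55933 above all 3. AZD0156 minus KU55933 was -1.43 on the log2 scale at probe set 17752700 and -2.13 at probe set 17731750. KU55933 exceeded the highest Galactose array by only 0.07 and 0.12. In limma with Benjamini-Hochberg adjustment neither difference passed the threshold. Both did without Galactose replicate 1, in a fit that called 12.5% of all probe sets lower. There was 1 array per inhibitor, and the gene was chosen with these values known, so the sizes are a description.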

How the results depend on the processing

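Galactose minus Control and AZD0156 minus Galactose kept their direction at the brighter probe sets of Mt1 and Mt2A under every alternative run. Other filters and other moderation cannot change a difference of group means. Only centring, leaving out a replicate and averaging probe sets could move these values. When a Galactose replicate was left out, Galactose minus Control ranged from 2.21 to 2.61 at Mt1 and from 1.15 to 1.38 at Mt2A. AZD0156 minus Galactose then ranged from -1.46 to -1.06 at Mt1 and from -1.15 to -0.92 at Mt2A. KU55933 minus Galactose ranged from 0.095 to 0.49 at Mt1. With the mean of its 2 probe sets, Mt2A moved to -1.35 for AZD0156 minus Galactose and to -1.78 for AZD0156 minus KU55933. The number of zinc, copper and metal-response genes called was 0 for Galactose minus Control with all deposited probe sets at 5 or above in the fit (8886 probe sets, of which 0 were called). When a Galactose replicate was left out it ranged from 0 to 11 for Galactose minus Control, from 0 to 4 for AZD0156 minus Galactose, from 0 to 3 for KU55933 minus Galactose and from 0 to 2 for AZD0156 minus KU55933. The highest counts all came without replicate 1, where 1 residual degree of freedom is left and the prior degrees of freedom rose from 4.97 to 108. Over all genes, Galactose minus Control had 93 higher and 73 lower calls, 152 and 91 after centring, 36 and 33 with no filter, 71 and 38 with a filter at 6, and 824 and 818, 30 and 17, or 3 and 3 without replicate 1, 2 or 3. No paired analysis was possible because the groups share fewer than 2 replicate numbers.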

Other observations

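Of 9 oxidant-response genes 8 were on the array and 7 were tested, and in galactose 1 rose and 0 fell, with a median of -0.02 (limma, beside 1.61% and 1.26% of all tested probe sets). Nqo1, a quinone reductase, rose by 1.74 ± 0.296 (adjusted p = 0.0381), from 3.73 in the Control to 5.12, 5.71 and 5.60 in Galactose, with 4.16 for AZD0156 and 5.40 for KU55933. Nqo1 was under 5 in the Control and with AZD0156 and entered the fit only through the arrays on which it was high. The call was lost without Galactose replicate 2 (adjusted p = 0.109) or 3 (0.126), with no filter (0.0741) and with all deposited probe sets (0.143), and Nqo1 is among genes the study picked from these samples. Nfe2l2, which encodes the oxidant-sensing factor NRF2, was at 1.15 (adjusted p = 0.087), the cystine importer Slc7a11, which reached 5 only in the Control and with AZD0156, at -1.13 (0.077) and Gclm, of glutathione synthesis, at -0.59 (0.268).

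Of 9 glucocorticoid-response genes 8 were on the array, 4 were tested and 0 passed. Galactose minus Control was -0.57 for Sgk1, -0.32 for Dusp1, -0.28 for Klf9 and -0.25 for Nr3c1, where 51.1% of all tested probe sets were below 0, and 0 of the 4 reached an unadjusted p of 0.05 in limma. For Dusp1 and Nr3c1 the Control lay within the Galactose arrays. Sgk1 reached 5 in the Control only, so that it passed the filter through the array on which it was high. Of 13 iron genes 12 were on the array, 8 were tested with 9 probe sets, and 0 passed (1 higher and 0 lower unadjusted, beside 11.2% and 11.9% of all), with a median of 0.03. Fth1, the ferritin heavy chain, was at 0.40, the transferrin receptor Tfrc at 0.39, Cp, which encodes ceruloplasmin, at -0.23 and Steap3 at -0.50. Over the 9 probe sets the differences ran from -0.50 to 0.58, the highest at a probe set not among these. Tfrc reached 5 only on Galactose replicate 2, and Steap3 only in the Control and with AZD0156.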
